A study of Sus scrofa with 39 samples.

Results

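Blood gene expression was compared between piglets with severe necrotizing enterocolitis (NEC) and piglets without it (CON), the controls of the same study. Of the 39 libraries of the series, 28 belonged to these groups by their severity label, 9 severe and 19 CON. The other 11 came from piglets with mild NEC and helped to estimate batch, sex and the spread between animals. All piglets were born preterm and fed formula, and necropsy on day 5 gave the diagnosis. Each library held RNA from the whole blood of 1 piglet, and neither genotype nor treatment separated the groups in the labels. Batch 1 contributed 7 CON and 3 severe piglets, batch 2 contributed 5 and 4, and batch 3 contributed 7 and 2. By label, 8 CON piglets were female and 11 male, against 4 and 5 severe piglets. CON means free of the gut disease at necropsy, not healthy term piglets, and the sources used here do not say when blood was drawn.

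NEC is an inflammatory disease of the immature gut in which parts of the intestinal wall die, typically in preterm newborns fed formula. Blood carries red cells, platelets and leukocytes, so a whole-blood profile adds up the RNA of all of them. Myeloid leukocytes engulf particles, acidify and digest them in lysosomes and signal through membrane lipids, whereas lymphocytes signal through antigen receptors coupled to Src family kinases.

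The libraries of the series held 12.8 to 29.0 M (mega) counts on genes, with a mean of 17.6 ± 2.35 M (SD, n = 19) in CON and 19.5 ± 4.51 M (SD, n = 9) in severe piglets. HBB, the gene for adult beta globin, took 56.2% ± 9.92 (SD, n = 19) of these counts in CON and 53.5% ± 8.19 (SD, n = 9) in severe blood, so every leukocyte gene was measured in the smaller remainder. HBB and the second most abundant gene together took 34.3 to 90.4% in CON and 61.4 to 87.4% in severe libraries. CON replicate 16 had the lowest share, and 4 CON libraries of batch 3 carried a run identifier that no severe library shared. Within batch 1 the joint share of the most abundant genes did not overlap, at 85.9 to 90.4% in CON and 70.4 to 80.8% in severe libraries. Counts outside these genes were 1.53 to 2.38 M in CON and 2.92 to 4.36 M in severe libraries of batch 1. In the other batches the shares overlapped. The part of this batch 1 difference in the calls was not tested. In NEC_Severe replicate 2, labelled male, no count fell on KDM5D, a gene of the Y chromosome, so its sex label is in doubt. Of 22 enterocyte and liver genes, 18 were in the files and none passed the low-count filter. Expression is given in CPM (counts relative to library size, scaled with TMM factors), and fold changes are adjusted for batch and sex, with ± standing for the standard error (SE) and an adjusted p from edgeR's quasi-likelihood test with Benjamini-Hochberg correction over all 10731 tested genes. A gene was called at an adjusted p under 0.05.

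The genes higher in severe blood included enzymes of membrane lipids, lysosomal genes, phosphoinositide signalling genes and monocyte markers, and the lower genes included antigen-receptor signalling genes, lymphoid regulators and fatty acid desaturases. In all, 224 genes were called, 2.09% of those tested, with 115 higher (1.07%) and 109 lower (1.02%) in severe piglets. A further, wider set of 1998 genes (18.6%) had an unadjusted p under 0.05, the 224 included. The median log2 fold change of all tested genes was -0.04, with 4794 of them above CON and 5937 below. The counts given for single gene lists are to be read beside these and beside the called shares of 1.07% higher and 1.02% lower. The lists were chosen with earlier results of these data known, so a count above these shares is a description and no test. Called changes were moderate, from 0.36 to 2.39 with a median of 0.92 among the higher genes and from -2.48 to -0.49 with a median of -0.83 among the lower genes. The called genes were of low to middle abundance, since 102 of them averaged at least 5 CPM and 2 at least 50 CPM. In none of the 224 did all severe piglets lie outside the CON range, so the calls are shifts between overlapping groups. The fold change kept 1 sign in all 3 batches for all 109 lower genes and for 101 of the 115 higher genes. The other 14 higher genes were below CON in batch 3, which held 2 severe piglets.

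**Figure D1:**
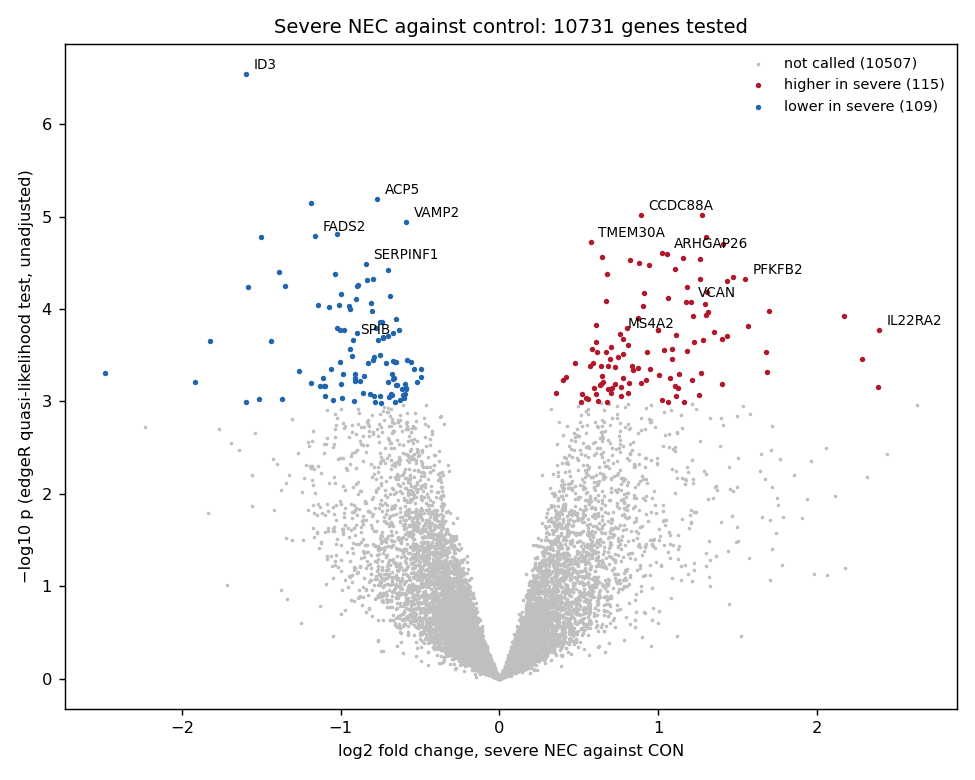
Log2 fold change of severe NEC against CON (x axis) and −log10 of the unadjusted p (y axis) for the 10731 tested genes, with 115 called higher genes in red, 109 called lower genes in blue and the rest in grey. The called genes lie on both sides in near equal number, and ID3 has the smallest p.

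The number of calls fell to between 12 and 105 when any of 6 of the 9 severe piglets was left out, while in those fits the 224 genes kept a median change in the called direction of 0.80 to 0.87, beside 0.88 with all piglets. Against the CON median of its own batch, NEC_Severe replicate 1 had 99.6% of the 224 genes on the called side, and the other piglets had 90.2% or more except NEC_Severe replicate 9, which had 74.1%. These shares describe the piglets that made the calls and carry no test. NEC_Severe replicate 9 had a median difference of 0.25 over the higher genes and -0.86 over the lower genes, while its batch companion, NEC_Severe replicate 8, had 0.98 and -1.14. Left out 1 at a time, a piglet moved the number of calls from 12 without NEC_Severe replicate 2 to 723 without NEC_Severe replicate 9. Fewer were called without NEC_Severe replicate 1 (55), 4 (79), 5 (91), 6 (105) or 8 (103) and without CON replicate 2 (130), 11 (133) or 18 (139), and leaving out the 4 CON libraries with their own run identifier gave 70. Without the piglets of batch 1 no gene was called (1240 at an unadjusted p under 0.05), without batch 2 there were 12, and without batch 3 there were 537. In each of these fits, every one of the 224 genes that could be tested kept its sign. The 12 genes called without NEC_Severe replicate 2 were all among the 224, and of the genes described here they included ID3, ACP5, VAMP2, FADS2, PLIN2 and CCDC88A. DESeq2 called 568 genes and limma voom with sample weights 2051, and both sets held all 224. With 8 surrogate variables added, edgeR called 0 (716 at an unadjusted p under 0.05), the median change of the 224 in the called direction was 0.34, and 4 of them changed sign.

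**Figure D2:**
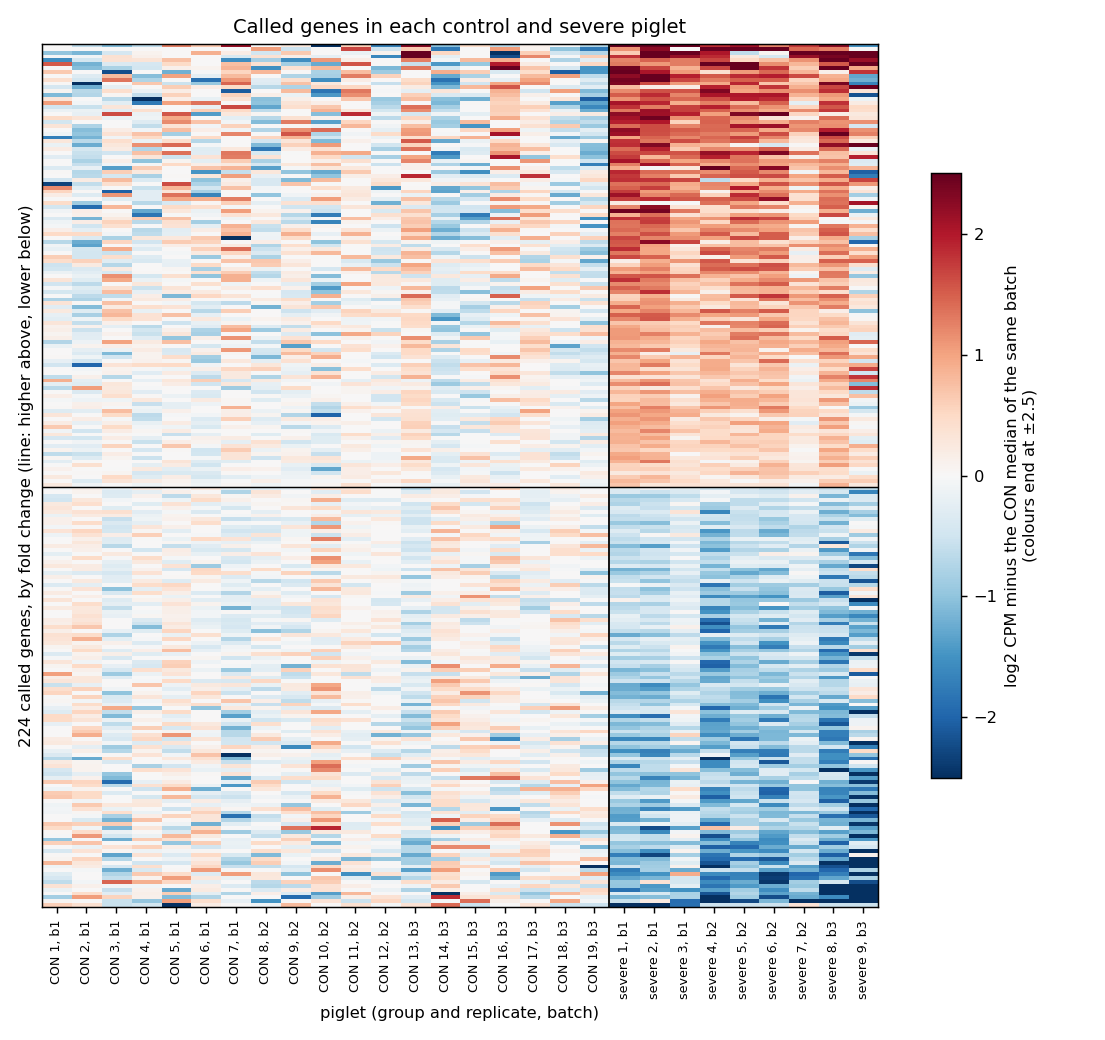
Log2 CPM of the 224 called genes (rows, by fold change) in the 19 CON and 9 severe piglets (columns), minus the CON median of the same batch, with red above and blue below and colours ending at ±2.5. Most severe columns share 1 pattern, and NEC_Severe replicate 9 is paler among the higher genes.

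**Figure D3:**
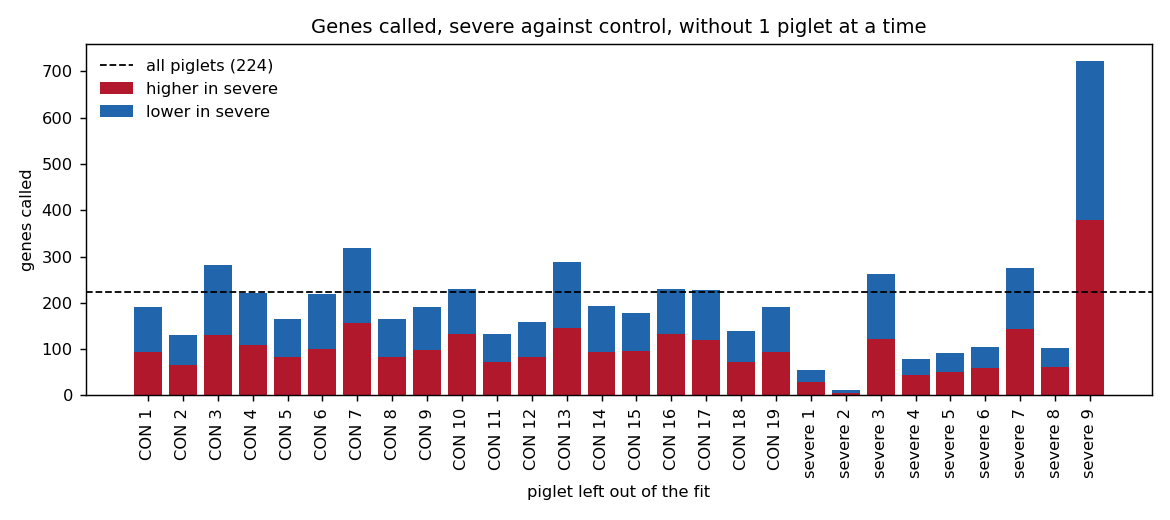
Number of genes called higher (red) and lower (blue) in severe piglets when the piglet on the x axis was left out, against the 224 of all piglets (dashed line). The count falls to 12 without NEC_Severe replicate 2 and rises to 723 without NEC_Severe replicate 9.

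Among membrane lipid genes, 5 enzymes and transporter subunits were called higher in severe blood and none of the list was called lower. Of 37 tested sphingolipid and phospholipid genes, 5 were called, all higher, and 28 lay above CON, with a median log2 fold change of 0.21 beside -0.04 for all genes. TMEM30A encodes the partner subunit that flippases need to move phosphatidylserine to the inner face of the plasma membrane. It ranged from 6.18 to 13.6 CPM with a median of 9.44 in CON and from 10.5 to 19.7 CPM with a median of 13.9 in severe piglets. All 9 severe piglets were above the CON median, although the ranges overlapped, and the log2 fold change was 0.58 ± 0.12 (adjusted p = 0.0166). SGMS1, the Golgi enzyme that makes sphingomyelin from ceramide, had a median of 6.70 CPM (2.79 to 10.1) in CON and 11.4 CPM (6.51 to 16.6) in severe blood. In 8 of 9 severe piglets it exceeded the CON median, and the log2 fold change was 0.88 ± 0.19 (adjusted p = 0.0166). LPCAT2, which remodels phosphatidylcholine and can make platelet-activating factor, rose by 0.92 ± 0.25 (adjusted p = 0.0405). ASAH1, the lysosomal acid ceramidase, rose by 0.73 ± 0.20 (adjusted p = 0.0413). PLCG2, the phospholipase downstream of Fc and B cell receptors, rose by 0.61 ± 0.15 (adjusted p = 0.0244). Without NEC_Severe replicate 2, none of the 5 was called, with an adjusted p of 0.0528 for TMEM30A and of 0.142 for LPCAT2 at the extremes.

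Other lipid genes went both ways. LPGAT1, an acyltransferase of phospholipid synthesis, rose by 0.80 ± 0.19 (adjusted p = 0.0244), with medians of 7.34 CPM in CON and 13.5 CPM in severe piglets. Of the 9 tested genes whose symbols start with LPCAT, LPGAT or AGPAT, a family gathered after its values were seen, LPCAT2 and LPGAT1 were called higher and AGPAT3 and LPCAT4 lower. AGPAT3 fell by 0.79 on the log2 scale (adjusted p = 0.0325) and LPCAT4 by 0.68 (adjusted p = 0.0463). ATP9A, a member of the flippase family that was picked after its value was seen, rose by 1.00 ± 0.24 (adjusted p = 0.0244). It was the only call among 10 tested genes whose symbols start with ATP8, ATP9, ATP10 or ATP11, the mitochondrial gene ATP8 included. Of 17 tested ZDHHC genes, the enzymes that attach palmitate to proteins and a family also gathered afterwards, 3 were called and all were higher. ZDHHC20 rose by 0.67 ± 0.15 (adjusted p = 0.0193), ZDHHC15 by 1.16 ± 0.25 (adjusted p = 0.0166) and ZDHHC3 by 0.68 ± 0.19 (adjusted p = 0.0429). ZDHHC20 was above CON in batches 1 and 2 (differences of 0.99 and 0.73 in mean log2 CPM) and level with it in batch 3 (-0.04). PANK3, a pantothenate kinase at the entry to coenzyme A synthesis, rose by 0.61 ± 0.15 (adjusted p = 0.0264).

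Of 3 tested fatty acid desaturase genes, a family gathered after its values were seen, 2 were called lower in severe piglets. FADS2, which puts the first extra double bond into dietary polyunsaturated fatty acids, and its relative FADS3 lie next to each other on chromosome 2 of Sscrofa11.1, at 9633941 to 9666666 and 9607627 to 9627352. FADS2 had a median of 1.55 CPM (0.41 to 2.42) in CON and 0.76 CPM (0.41 to 1.10) in severe blood, at low counts. No severe piglet exceeded the CON median, and the log2 fold change was -1.16 ± 0.24 (adjusted p = 0.0166, and 0.0460 without NEC_Severe replicate 2). FADS3 was better covered, with a median of 18.9 CPM (8.94 to 29.6) in CON and 12.1 CPM (3.68 to 19.6) in severe blood. It lay below the CON median in 8 of 9 severe piglets and fell by 0.89 on the log2 scale (adjusted p = 0.0170, and 0.0617 without NEC_Severe replicate 2). FADS1, the third tested desaturase of this group, had a log2 fold change of -0.23 ± 0.21 (adjusted p = 0.582). In the list of 35 tested fatty acid and lipid droplet genes, FADS2 was the lower call and PLIN2, which coats lipid droplets, the higher call. PLIN2 rose by 1.18 ± 0.26 (adjusted p = 0.0170), most in batch 2 (difference of 1.91 in mean log2 CPM) and less in batch 1 (0.35). ABCG1, which exports cholesterol from leukocytes, was the only call among 28 sterol genes and fell by 0.94 on the log2 scale (adjusted p = 0.0300), with little difference in batch 1 (-0.09). TBXA2R, the thromboxane receptor, was the only call among 20 eicosanoid genes and fell by 0.90 (adjusted p = 0.0170).

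Lysosome genes were mostly above CON. Of 44 tested lysosome genes, 36 were above CON, with a median log2 fold change of 0.21, and 3 were called, all higher. ACP5, a lysosomal phosphatase outside this list, was called lower at -0.77 (adjusted p = 0.0166), so the direction of the calls depends on list membership. ATP6V1A, the catalytic subunit of the proton pump that acidifies lysosomes, had a median of 6.60 CPM (3.80 to 12.04) in CON and 11.4 CPM (6.84 to 14.3) in severe blood. All 9 severe piglets exceeded the CON median, and the log2 fold change was 0.65 ± 0.14 (adjusted p = 0.0166). A second pump subunit, ATP6V1C1, rose by 0.78 ± 0.21 (adjusted p = 0.0397), and 7 of 10 tested subunit genes lay above CON. Of 36 proteases and inhibitors 21 were above CON, with a median of 0.16, 3 called higher and 1 lower. SLPI, an inhibitor of neutrophil elastase, rose by 1.57 ± 0.38 (adjusted p = 0.0244). The membrane sheddases ADAM9 and ADAM10 rose by 0.78 ± 0.19 (adjusted p = 0.0262) and 0.48 ± 0.12 (adjusted p = 0.0340). SERPINF1, a secreted serpin that inhibits no protease, was the lower call of that list and fell by 0.84 (adjusted p = 0.0166). Of 35 endocytosis and phagocytosis genes 2 were called. ANXA1, a phospholipid-binding protein that dampens leukocyte migration, had a median of 58.5 CPM (31.2 to 118) in CON and 115 CPM (45.9 to 173) in severe piglets. Its log2 fold change was 0.95 ± 0.25 (adjusted p = 0.0362), close to equal in the 3 batches at 0.98, 0.88 and 0.98. ANXA5, which binds exposed phosphatidylserine, rose by 0.73 ± 0.19 (adjusted p = 0.0357). Without NEC_Severe replicate 2 no gene of the lysosome, protease or endocytosis lists was called.

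Several monocyte markers were called higher in severe blood as well. Of 15 tested monocyte and macrophage markers, 13 were above CON and 5 were called higher, with a median log2 fold change of 0.92. None was called without NEC_Severe replicate 2, and 7 were without NEC_Severe replicate 9. The mean log2 CPM over this list ranged from 1.44 to 3.24 in CON and from 2.40 to 3.52 in severe piglets, and was higher in severe blood in each batch. Neutrophil granule genes, 10 of them tested, had a mean log2 CPM between 0.61 and 5.90 in CON and between 2.61 and 5.62 in severe piglets, with 9 above CON and 1, SLPI, called. The part of these cell types in the lipid and lysosome results was not tested. In whole blood, more cells of a type and more RNA per cell cannot be told apart, and the same holds for fewer cells and less RNA per cell.

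**Figure D4:**
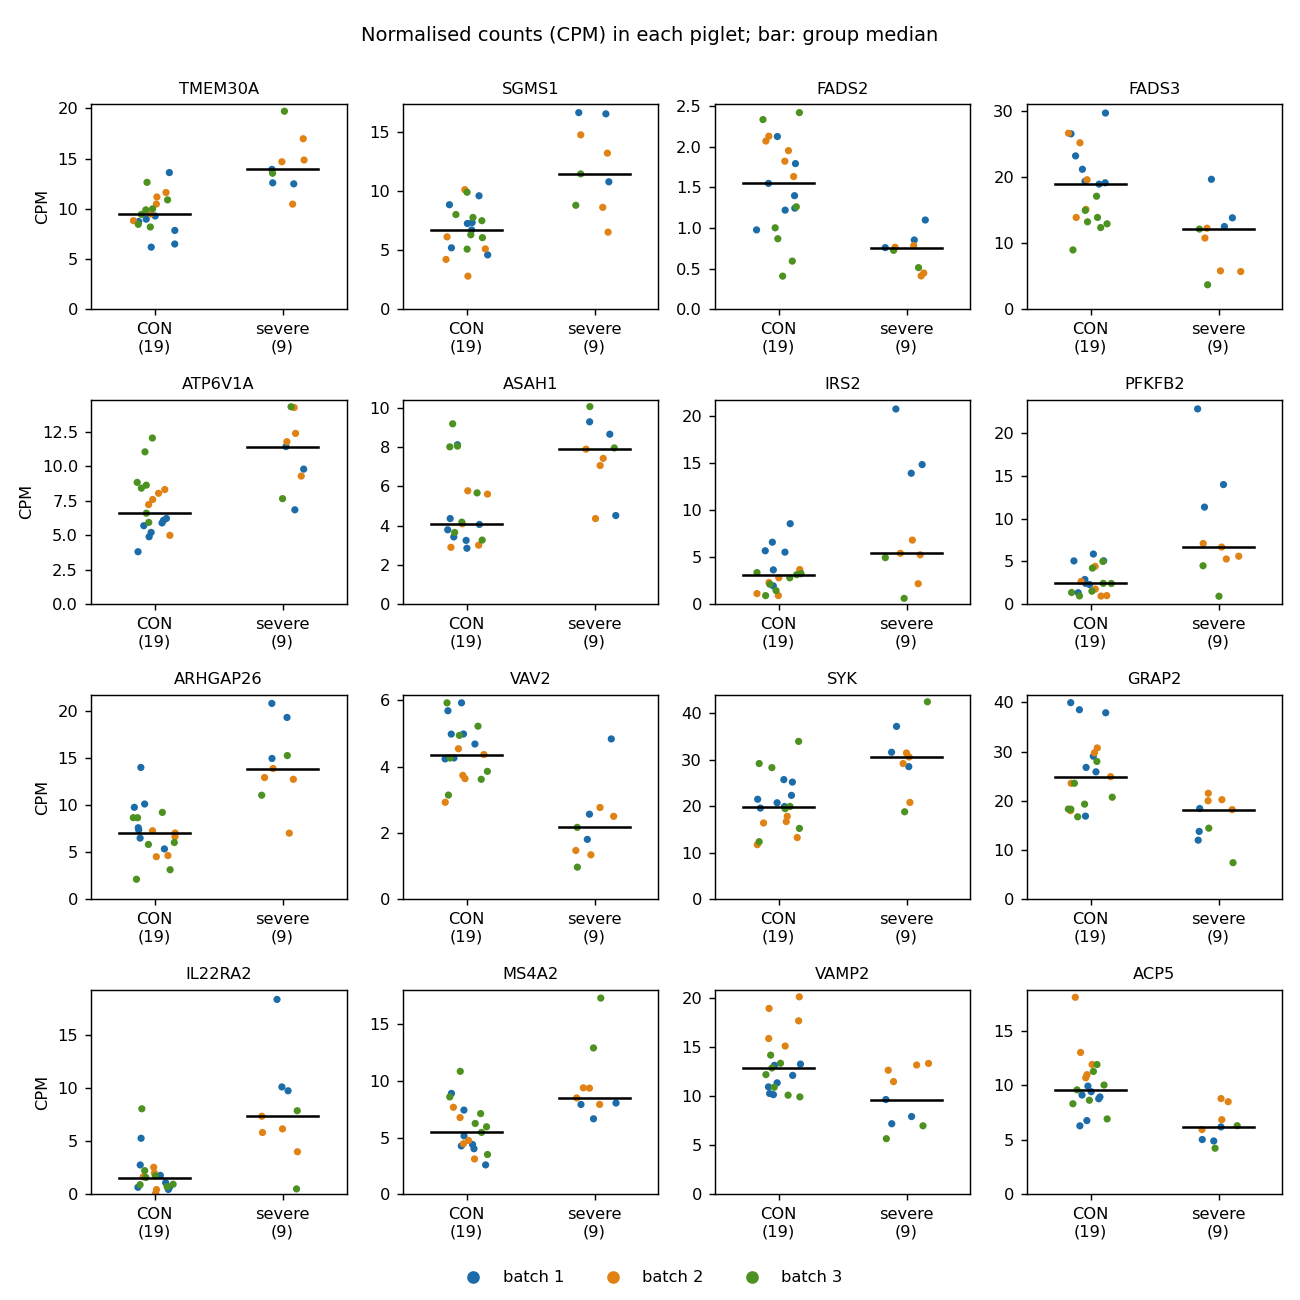
CPM of 16 called genes (y axis of each panel, from 0) in every CON and severe piglet, coloured by batch, with the group median as a bar. TMEM30A, SGMS1, ATP6V1A, ASAH1, IRS2, PFKFB2, ARHGAP26, SYK, IL22RA2 and MS4A2 are shifted up, FADS2, FADS3, VAV2, GRAP2, VAMP2 and ACP5 down, and in every panel the groups overlap.

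A few genes of insulin and phosphoinositide signalling were called higher, and for IRS2 and PFKFB2 the within-batch difference was largest in batch 1. Of 35 tested PI3K, AKT and mTOR genes, 4 were called, all higher, while the list's median was 0.08 and 21 genes were above CON, so the list as a whole lay near all genes. IRS2, the adaptor that links insulin and cytokine receptors to PI3K, had a median of 3.15 CPM (0.91 to 8.57) in CON and 5.42 CPM (0.62 to 20.8) in severe piglets. The log2 fold change was 1.18 ± 0.27 (adjusted p = 0.0193), with differences of 1.81, 1.21 and -0.30 in mean log2 CPM in batches 1, 2 and 3. The 3 severe piglets of batch 1 were the highest, and NEC_Severe replicate 9 had the lowest value of all 28. PFKFB2, which makes the activator of glycolysis fructose 2,6-bisphosphate and was the only call among 27 glycolysis genes, followed the same order. Its median was 2.44 CPM (0.95 to 5.87) in CON and 6.68 CPM (0.93 to 22.8) in severe blood. Its log2 fold change was 1.55 ± 0.34 (adjusted p = 0.0166), with batch differences of 2.24, 1.70 and -0.09. PIK3CG, the catalytic subunit of the leukocyte kinase PI3K gamma, rose by 0.70 ± 0.18 (adjusted p = 0.0290). INPP4A, which removes a phosphate from the PI3K lipid products, rose by 0.77 ± 0.21 (adjusted p = 0.0417). IGF2R, the receptor that sorts enzymes to lysosomes and binds IGF2, rose by 0.68 ± 0.19 (adjusted p = 0.0495), with -0.10 in batch 3. Without NEC_Severe replicate 2 the adjusted p was 0.0697 for IRS2, 0.0898 for PFKFB2 and 0.208 for IGF2R.

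Genes that act on the cytoskeleton and on its small GTPases went both ways. ARHGAP26, a GTPase-activating protein that turns off CDC42, had a median of 7.05 CPM (2.13 to 14.01) in CON and 13.9 CPM (7.03 to 20.8) in severe piglets. The log2 fold change was 1.05 ± 0.22 (adjusted p = 0.0166), with 1.12, 0.92 and 1.21 in the 3 batches. FGD4, an activator of CDC42, rose by 1.47 ± 0.32 (adjusted p = 0.0166), with -0.01 in batch 3. GAS7, an actin-binding protein, rose by 1.11 ± 0.30 (adjusted p = 0.0416). CCDC88A, also called girdin, an actin-binding protein of cell migration that is outside the lists and was picked after its value was seen, rose by 0.89 ± 0.18 (adjusted p = 0.0166, and 0.0492 without NEC_Severe replicate 2). VAV2, a guanine nucleotide exchange factor downstream of antigen receptors, had a median of 4.37 CPM (2.93 to 5.93) in CON and 2.17 CPM (0.97 to 4.84) in severe blood. It lay below the CON median in 8 of 9 severe piglets, NEC_Severe replicate 3 being the exception, and fell by 1.02 (adjusted p = 0.0166). ARHGEF16 fell by 1.01 (adjusted p = 0.0193), with -0.15 in batch 1 and -1.97 in batch 3. Without NEC_Severe replicate 2 the adjusted p was 0.0617 for ARHGAP26, VAV2 and ARHGEF16, 0.0774 for FGD4 and 0.138 for GAS7. Of 14 tested genes whose symbols start with TUB, as those of tubulins do, looked up afterwards, none was called and 2 were above CON. TUBA1B had a median of 54.7 CPM (35.1 to 103) in CON and 42.5 CPM (37.1 to 46.4) in severe piglets, a log2 fold change of -0.53 ± 0.16 (adjusted p = 0.0623).

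Within leukocyte kinase signalling, calls went both ways. Of 36 Src kinases, adaptors and phosphatases of leukocytes, 26 were above CON, with 1 called higher and 3 lower. SYK, the kinase of Fc and B cell receptors that is abundant in myeloid cells as well, had a median of 19.9 CPM (11.7 to 33.9) in CON and 30.6 CPM (18.8 to 42.5) in severe blood. Its log2 fold change was 0.65 ± 0.17 (adjusted p = 0.0393). GRAP2, the T cell adaptor known as GADS, had a median of 24.9 CPM (16.8 to 40.0) in CON and 18.2 CPM (7.44 to 21.5) in severe piglets. All 9 severe piglets lay below the CON median, and GRAP2 fell by 0.74 (adjusted p = 0.0233). The T cell kinase LCK fell by 0.63 (adjusted p = 0.0490) and the B cell kinase BLK by 0.91 (adjusted p = 0.0382). FCMR, the receptor for IgM on lymphocytes, was the lower call among 16 Fc receptor genes, against PLCG2 and SYK higher, and fell by 0.75 (adjusted p = 0.0320). The Src kinase list held 0 calls without NEC_Severe replicate 2, with an adjusted p of 0.0745 for GRAP2, 0.101 for LCK and BLK and 0.111 for SYK, and without NEC_Severe replicate 9 it held 11.

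The next 4 lower genes are outside the lists, were picked after their values were seen, and are given as single genes. Of 10 tested genes whose symbols start with PRKC, 1 was called, lower. Among 7 diacylglycerol kinases, 1 was called lower and 1, DGKG, higher. PRKCQ, the protein kinase C of the T cell synapse, fell by 0.76 (adjusted p = 0.0263). Its differences in mean log2 CPM were -0.22, -0.59 and -1.97 in batches 1, 2 and 3. Without batch 3 its log2 fold change was -0.405 (adjusted p = 0.136). DGKA, which consumes the diacylglycerol that activates both PRKCQ and RAS activators, fell by 0.70 (adjusted p = 0.0257). Its batch differences were -0.19, -0.98 and -1.05 in the same order. RASGRP2, a diacylglycerol- and calcium-linked activator of RAP1, fell by 0.49 (adjusted p = 0.0362), from a median of 34.6 CPM (20.0 to 44.8) in CON to 25.7 CPM (19.5 to 33.2). CARMIL2, a partner of the costimulatory receptor CD28, fell by 0.64 (adjusted p = 0.0413). Without NEC_Severe replicate 2, the adjusted p of these 4 genes lay between 0.0617 for DGKA and 0.0898 for CARMIL2.

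Several lymphoid transcription factors and surface genes were called lower, with ID3 the gene of smallest p. Of 36 E protein, ID and lymphoid transcription factor genes, 29 were below CON and 3 were called lower. ID3, an inhibitor of E proteins in lymphocytes, ranged from 2.12 to 11.7 CPM in CON and from 1.07 to 4.68 CPM in severe piglets, a log2 fold change of -1.60 ± 0.26 (adjusted p = 0.0031). SOX13, a factor of gamma-delta T cells in mice, fell by 1.00 (adjusted p = 0.0339), and GATA3 fell by 0.74 (adjusted p = 0.0499). The median differences of the whole transcription factor list were 0.03, -0.37 and -0.93 in batches 1, 2 and 3. Of 23 B cell genes 22 were below CON, where 5937 of all 10731 tested genes were below it. Of these B cell genes 5 were called lower, among them CXCR5, SPIB, BLK and CD79A, and the median of the list was -0.69. Averaged over the tested B cell genes, log2 CPM ranged from 1.38 to 2.33 in CON and from 0.68 to 1.65 in severe piglets. Of 27 T cell genes 26 were below CON and 3 were called lower, GRAP2, LCK and GATA3, with a median of -0.54. In batches 1, 2 and 3 the T cell list shifted by -0.18, -0.74 and -0.88 and the B cell list by -0.59, -0.69 and -0.51. HLA-DRA, the symbol given in the gene table for a class II histocompatibility chain, was the only call among 15 class II genes and fell by 0.91 (adjusted p = 0.0407). Reads aligned to several places are not in its counts, and how many of them came from this gene was not examined. Without NEC_Severe replicate 2 the B cell list kept 1 call, the T cell list 0 and the transcription factor list 1, while without NEC_Severe replicate 9 they had 12, 13 and 6.

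The calls in the monocyte, Toll-like receptor and complement lists were all in the higher direction. The 5 called monocyte markers were CD163, CSF1R, VCAN, VSIG4 and FCN2. CSF1R, the receptor for the main monocyte growth factor, had a median of 30.1 CPM (10.6 to 59.0) in CON and 54.1 CPM (35.5 to 98.4) in severe piglets, all 9 above the CON median. Its log2 fold change was 0.82 ± 0.22 (adjusted p = 0.0412, and 0.101 without NEC_Severe replicate 2). Of 46 Toll-like receptor and lipopolysaccharide genes 3 were called higher, namely TLR8 by 1.04 ± 0.26 (adjusted p = 0.0301), TNIP3 by 1.35 ± 0.33 (adjusted p = 0.0250) and AOAH by 0.84 ± 0.22 (adjusted p = 0.0364). TLR8 senses single-stranded RNA, TNIP3 dampens NF-kappaB, and AOAH deacylates lipopolysaccharide. C5AR2, the second receptor for the complement fragment C5a, rose by 1.06 ± 0.30 (adjusted p = 0.0495). The Toll-like receptor list held 0 calls without NEC_Severe replicate 2, with an adjusted p of 0.0774 for TNIP3 and 0.101 for TLR8 and AOAH, and C5AR2 had 0.156, while without NEC_Severe replicate 9 the list held 4. MS4A2, the beta chain of the high-affinity IgE receptor of basophils and mast cells, had a median of 5.45 CPM (2.59 to 10.8) in CON and 8.49 CPM (6.65 to 17.3) in severe blood. All 9 severe piglets were above the CON median, the 2 of batch 3 the highest, and the log2 fold change was 0.76 ± 0.19 (adjusted p = 0.0252). The basophil, eosinophil and mast cell list as a whole was near CON, with 6 of 10 genes above it and a median of 0.16. TNFRSF21, a death receptor, rose by 1.26 ± 0.28 (adjusted p = 0.0166), and FKBP5, a glucocorticoid-induced chaperone partner, by 0.94 ± 0.20 (adjusted p = 0.0166).

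IL22RA2, the soluble receptor that captures interleukin 22, a cytokine of gut epithelial repair, had the largest fold change among the higher genes that are described here. It was picked after its value was seen. Its median was 1.59 CPM (0.11 to 8.05) in CON and 7.35 CPM (0.52 to 18.3) in severe piglets. The severe piglets of batch 1 were the highest at 9.74 to 18.3 CPM, and NEC_Severe replicate 9 was at 0.52 CPM. The log2 fold change was 2.39 ± 0.57 (adjusted p = 0.0244, and 0.111 without NEC_Severe replicate 2), with 3.13, 2.53 and 0.33 in the 3 batches. ENTPD1, the ectoenzyme CD39 that degrades extracellular ATP, also picked afterwards, rose by 1.23 ± 0.30 (adjusted p = 0.0266).

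Among the remaining lower genes were vesicle, phosphatase and RNA-modification genes. VAMP2, a SNARE protein of vesicle fusion, had a median of 12.9 CPM (9.95 to 20.2) in CON and 9.68 CPM (5.69 to 13.4) in severe piglets and fell by 0.59 (adjusted p = 0.0166, and 0.0460 without NEC_Severe replicate 2). Its levels also differed by batch, the severe piglets of batch 2 lying at 11.5 to 13.4 CPM. STXBP5, known as tomosyn, which holds back SNARE pairing, was the higher call of 33 vesicle fusion genes with 0.81 ± 0.22 (adjusted p = 0.0459), but it was below CON in batch 3 (-0.33). ACP5, a lysosomal acid phosphatase, had a median of 9.60 CPM (6.30 to 18.1) in CON and 6.19 CPM (4.24 to 8.80) in severe blood. All 9 severe piglets were below the CON median, and ACP5 fell by 0.77 (adjusted p = 0.0166, and 0.0460 without NEC_Severe replicate 2). CTU2, needed for thiolation of transfer RNA, fell by 0.70 (adjusted p = 0.0166). It was 1 of 3 lower calls, with TRMT1 and RPUSD3, among 24 tested genes whose symbols start with CTU, TRMT, PUS or RPUSD, gathered after the values were seen, and none of the 24 was called higher. Among lower genes with a mean of at least 5 CPM, the others of smallest p were JUP, LHPP, ARHGEF16, HAUS7, ANO9 and XPNPEP1, each lower by 0.63 to 1.01.

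Of the 72 gene lists with at least 3 tested members, 23 held calls in the higher direction alone, 11 in the lower alone, 6 in both and 32 none. Lists with no call included interferon-stimulated genes (45 tested), nuclear genes of oxidative phosphorylation (36), ribosomal proteins (40), proteasome subunits (31), autophagy (37), hypoxia (18), cell cycle (34), cytokines and their receptors (28), platelets (24) and red cell genes (34). A list without a call is not shown to be unchanged. Red cell, ribosomal protein and mitochondrial lists went opposite ways in the batches. Batches 1, 2 and 3 had median differences of -0.80, 0.10 and 0.67 for red cell genes. In the same order, they were -0.79, -0.38 and 0.62 for ribosomal protein genes and -0.80, 0.02 and 0.87 for mitochondrially encoded genes. In batch 1 the reads outside features were also a larger share in severe piglets (1.49 to 3.35%) than in CON (0.43 to 1.21%), and the part of library composition in these lists was not tested. Nucleolus and ribosome biogenesis genes were below CON in 22 of 26 cases with medians of -0.25, -0.20 and -0.35 in the batches, and none was called. Myeloid transcription factors were above CON in 19 of 22 cases, and none was called, with TFEC at 1.15 ± 0.35 (adjusted p = 0.0621) and BACH1 at 0.68 ± 0.21 (adjusted p = 0.0709) nearest.

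**Figure D5:**
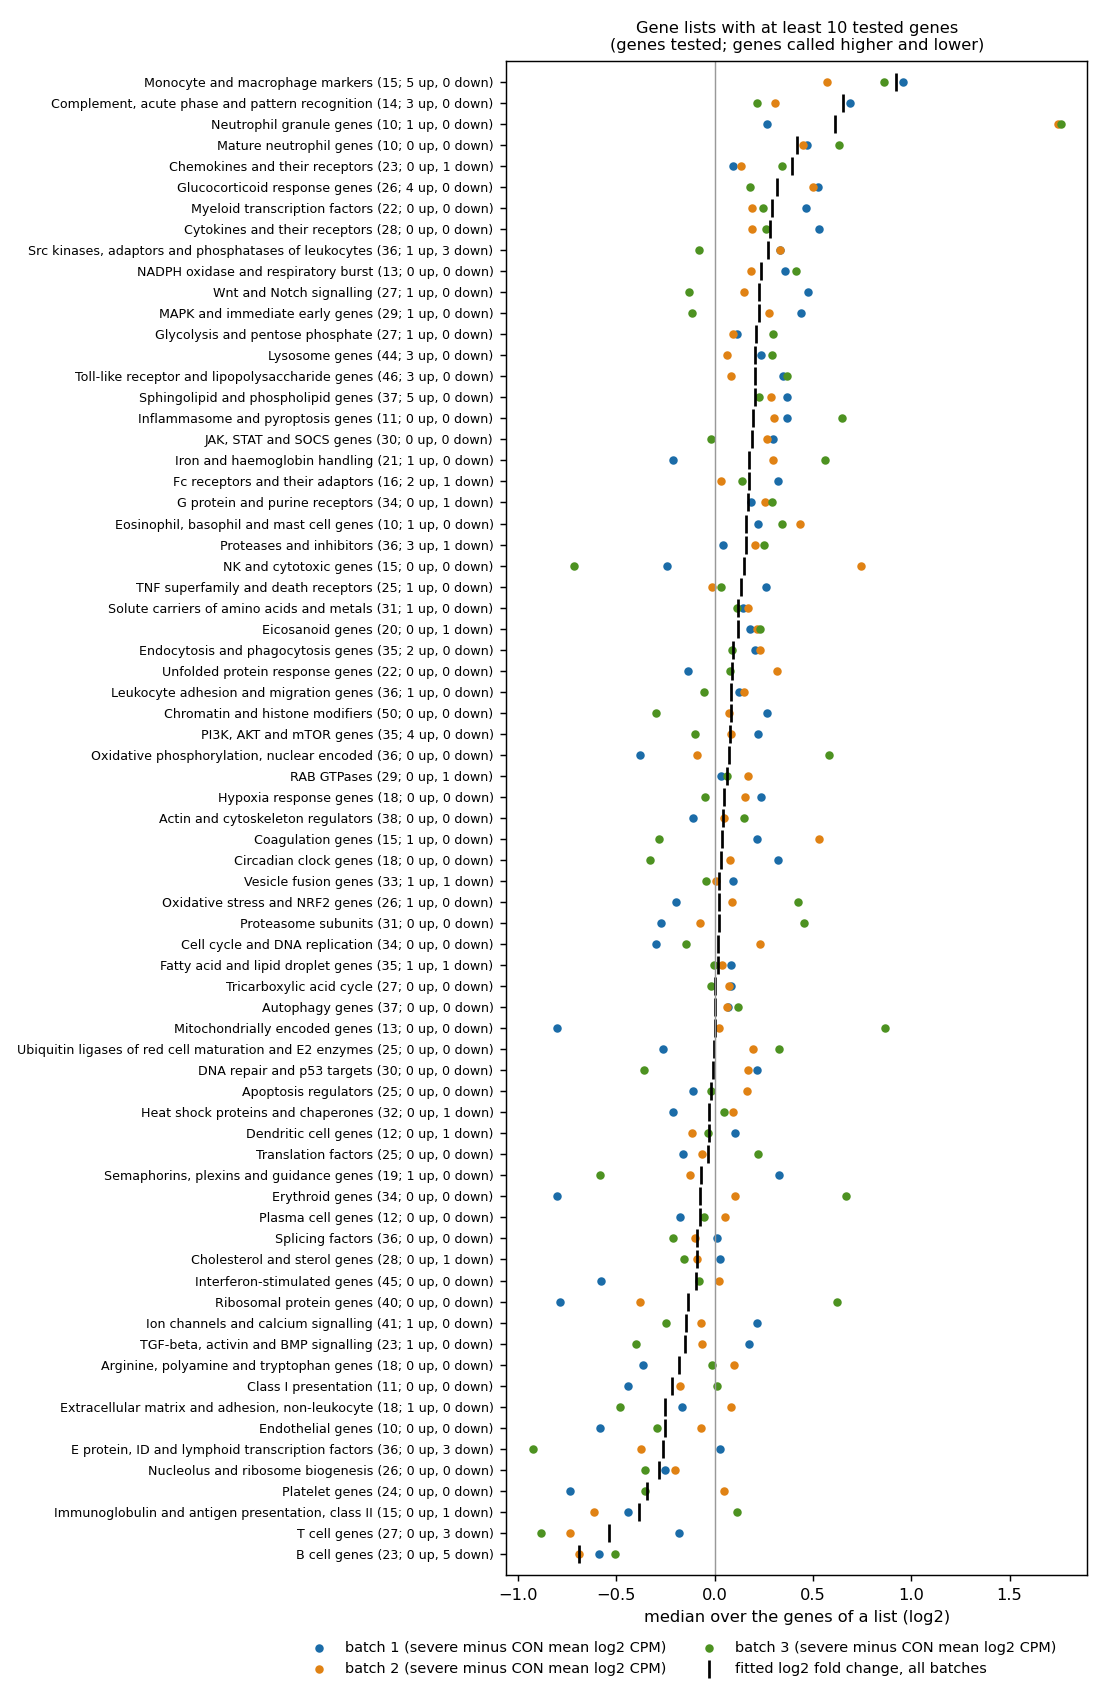
Median log2 difference between severe and CON piglets over the tested genes of the lists shown, which have at least 10 of them each (rows), within each batch (coloured points) and from the fit of all batches (black ticks), with the numbers of tested and called genes in brackets. By the fit, monocyte markers lie furthest right and B and T cell genes furthest left, and red cell, ribosomal protein and mitochondrial lists have batch 1 on the left and batch 3 on the right.

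Severe piglets were set against mild ones in the same fit, as the test of what differs with severity. Batch 2 held 4 of the 9 severe piglets and no mild one, so these 4 were set against mild piglets through the batch term alone. The comparison called 12 genes (0.112%), 11 of them lower (0.103%) in severe piglets, with 1355 genes at an unadjusted p under 0.05. Of the lower genes, 5 were in the B cell list, among them MS4A1, CD79A, FCRL1 and SPIB. MS4A1 differed by -1.57 ± 0.31 (adjusted p = 0.0157), CD79A by -1.09 ± 0.20 (adjusted p = 0.0116), FCRL1 by -1.65 ± 0.32 (adjusted p = 0.0145) and CLEC17A by -1.42 ± 0.27 (adjusted p = 0.0116). CLEC17A is a lectin of B cells in humans. For these 4 genes the mild piglets also averaged above CON, with 6.56 against 3.94 CPM for MS4A1, 24.99 against 18.33 CPM for CD79A, 3.67 against 2.16 CPM for FCRL1 and 2.61 against 1.46 CPM for CLEC17A. SPIB, VAV2, ID3, RAB28 and VAMP2 were also lower, and ATP9A was the higher one, at 1.397 ± 0.30 (adjusted p = 0.0304). Averaged over the tested B cell genes, log2 CPM ranged from 1.31 to 3.08 in mild piglets. Of the 224 genes called between severe and CON piglets, 8 were among these 12. In the same edgeR fit, mild against CON called 0 genes (0%), with 841 at an unadjusted p under 0.05. Without NEC_Severe replicates 1 and 2, the severe against mild comparison called 0 genes in edgeR (972 at an unadjusted p under 0.05) and severe against CON 2. None of the 224 passed edgeR's test for an interaction of severity and batch. Batch 3 held 2 severe piglets and the 224 were called for a difference over all batches, so none is shown to change alike in them. Over all tested genes the interaction test called 6 (0.0559%) in edgeR, with 1660 at an unadjusted p under 0.05, where DESeq2 called 132. Of these 6, 3 genes followed the Y chromosome pattern that put the sex label of NEC_Severe replicate 2 in doubt.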

How the data were processed

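Whole-blood RNA of 39 piglets was measured by paired-end mRNA sequencing, per the labels' protocols. The authors deposited 1 file of unnormalized read counts per piglet, by Ensembl gene. Trim Galore, TopHat, HTSeq, DESeq2 and the build Sscrofa11.1 are named in the submitters' processing notes; the sources used here give no versions, annotation or strand setting. The closing lines of each file (reads outside features, 2.71% ± 0.68 in severe, n = 9, SD; ambiguous, 7.17%; aligned to several places, 28.1%) stayed out of library sizes and tests. The main test was edgeR 4.0.16 (R 4.3.3), quasi-likelihood with robust dispersions, TMM scaling and filterByExpr (minimum count 10), on severity (3 levels), batch and sex over 39 piglets. SE is the absolute log2 fold change over √F. Within-batch values are differences of mean log2 CPM (prior count 2). The severity by batch test used the 28 CON and severe piglets. Alternatives used DESeq2 1.42.0, limma 3.58.1 and sva 3.50.0, other filters and scalings, and piglets or batches left out. The named genes had a symbol and a mean of at least 5 CPM and were the 14 higher and 14 lower of smallest p, plus up to 4 per list, Y-linked genes apart; a few of them are not reported here, and others are said to be picked afterwards. The members and the 73 lists were chosen with earlier results of these data known. No pair of libraries within CON or within the severe group agreed within sampling noise (lowest chi-square per degree of freedom 9.61). Mild libraries and pairs across groups were not compared. The fit was checked on simulated counts. Symbols covered 14857 of 25880 genes; coordinates are RefSeq's for Sscrofa11.1, matched by symbol.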

Additional observations from a re-analysis of the deposited data

Results flagged for a closer look

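Within the 9 severe piglets, 12 of 115 measures had 1 piglet far from the others by Dixon's cutoff. That cutoff assumes independent values from 1 normal distribution. Here CPM were pooled over the batches and most genes were chosen for their calls, so the count cannot be set against a rate expected by chance. NEC_Severe replicate 9 was the highest for SPIB (12.1 CPM, next 5.20), CXCR5 (4.03 CPM, next 2.56), HLA-DRA (31.1 CPM, next 14.03), SERPINF1 (8.79 CPM, next 5.87), TBXA2R (2.38 CPM, next 1.73) and MAP2K1 (9.30 CPM, next 5.50). It was the lowest for LPCAT4 (0.413 CPM, next 1.98) and RPUSD3, which had 0 CPM there and at least 0.828 CPM in the others. NEC_Severe replicate 3 was the highest for BLK (14.1 CPM, next 6.93), SOX13 (11.099 CPM, next 4.89) and VAV2 (4.84 CPM, next 2.77). NEC_Severe replicate 8 was the highest for CSF1R (98.4 CPM, next 62.6).

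The severe minus CON difference depended on batch, by edgeR's interaction test, for GRAMD1B (adjusted p = 0.00113), CTR9 (adjusted p = 0.00794) and OGFOD2 (adjusted p = 0.0107). GRAMD1B was lower in batch 3 (-3.39 in mean log2 CPM) and near CON in batch 1 (0.14), and CTR9 was higher in batch 3 (2.62) and near CON in batch 1 (-0.09). The test also called ENSSSCG00000012178 (adjusted p = 9.32e-05), ENSSSCG00000012179 (adjusted p = 0.00113) and the Y-linked gene EIF1AY (adjusted p = 0.00524), with batch 1 differences of -4.09, -2.26 and -2.58. For these 3, each of the 19 other piglets labelled male exceeded all 19 labelled female, and NEC_Severe replicate 2, the only severe piglet of batch 1 labelled male, lay within the female range. ENSSSCG00000012178 was at 30.01 to 51.1 CPM in those males, at most 0.721 CPM in the females and 0 in NEC_Severe replicate 2. The CON piglets of batch 1 labelled male (replicates 1, 4 and 7) had 39 to 67 counts on EIF1AY, beside 1 in NEC_Severe replicate 2. The batch 1 differences of these genes thus depend on that piglet and its doubted sex label, and their cause was not tested.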

How the results depend on the processing

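The 224 calls between severe and CON piglets became 568 with DESeq2, 2051 with limma voom, 127 with no low-count filter, 38 with neither batch nor sex, 70 without the 4 controls of the other run identifier, 0 with surrogate variables (716 at an unadjusted p under 0.05 in edgeR), 0 without batch 1 (1240), 12 without batch 2 and 537 without batch 3. Removing 1 piglet at a time gave 12 to 723. Severe against mild called 12 genes and then 108, 1233, 33 (without those controls), 1 (surrogate variables), 0 (without batch 1, 567 at an unadjusted p under 0.05 in edgeR), 0 (without batch 2, 1474) and 248 (without batch 3), and 5 to 56 without 1 piglet. The severity by batch test called 6 and then 132 (DESeq2), 11 (limma), 10 (no filter), 3 (at least 1 CPM in 20 libraries) and 3 (no sex term), and 2 to 843 without 1 piglet. Chosen after seeing the data, leaving out NEC_Severe replicates 2 and 9 gave 209, 22 and 3 calls, and leaving out replicates 1 and 2 gave 2, 0 and 1. DESeq2 size factors (230), removal of globin genes (232), no sex term (251) and the 28 piglets alone (299) kept the first count within 1.5 times. TRMT1 (0.035), C5AR2 (-0.0153) and STXBP5 (-0.0134) changed sign with surrogate variables, and FADS1, not called in any case, without batch 3 (0.00341). The cause was not tested. No paired analysis was possible because the labels give no replicate numbers. Depth outside HBB and the second most abundant gene, 1.53 to 12.6 M (mega) counts in CON, limits the genes of low CPM.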

Other observations

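Genes called higher spanned more of the genome than genes called lower. The RefSeq span of a gene, from its start to its end with introns, had a median of 73.9 kb over the 96 called higher genes matched by symbol (of 99 with a symbol) and 18.1 kb over 86 called lower genes (of 93), beside 30.0 kb over 8769 of all 9303 tested genes with a symbol. The quartiles were 35.3 and 140.3 kb for the higher genes and 8.96 and 44.0 kb for the lower genes. These are descriptions with no test, and the pattern was noticed after the calls were made.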
